A study of Mus musculus with 4 samples.

Results

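Committed oligodendrocyte precursors are the short-lived cells between dividing oligodendrocyte precursors and the oligodendrocytes that make myelin. Here they are the 51 nuclei, of 112194 kept from 112746 barcodes, that carried transcripts of this stage in single-nucleus RNA sequencing of the mouse spinal dorsal horn. A nucleus was kept with at least 300 genes and under 5% mitochondrial counts. It was taken as committed when Gpr17, Neu4 and Bmp4 together gave at least 2 UMIs (unique molecular identifiers, each standing for 1 captured transcript), when Bcas1, Enpp6, Tcf7l2, Sirt2 and Mpzl1 together gave at least 2 UMIs, and when the neuronal genes Snap25, Rbfox3, Syt1, Snhg11 and Meg3 took under 2% of its UMIs. The nuclei were chosen by the UMI counts of these 8 lineage genes and 5 neuronal genes, so their levels are descriptions and not results.

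The study set mice lacking the receptor gene Gpr37l1 (Gpr37l1-/-, here knockout) against Gpr37l1+/+ mice (wild type). It compared them 1 day after spared nerve injury (SNI), an operation that cuts branches of the sciatic nerve and gives lasting pain, and in naive animals without it. There was 1 library for each of the 4 groups, and the values below are given in the order knockout SNI, wild-type SNI, knockout naive and wild-type naive. The labels give neither strain, age, sex, the number of animals behind a library nor a cell type to which the deletion is restricted. Titles set the groups here, because the treatment tag says SNI for the naive knockout and naive for the SNI wild type. The knockout SNI library is also labelled as total RNA and the other 3 as polyA RNA. With 1 library per group no test between groups was possible, and every 95% interval covers counting error only, not the spread between animals. Intervals of levels and of their ratios treat UMIs as independent, so they also leave out the spread between nuclei. A difference in genotype or injury cannot be told apart from any other difference between 2 libraries.

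Oligodendrocyte precursors carry the growth factor receptor Pdgfra and the proteoglycan Cspg4 on their surface, and they can divide and migrate. On commitment they leave the cycle, lose Pdgfra, and briefly express the receptor Gpr17, the sialidase Neu4 and the secreted factor Bmp4 before they extend processes and switch on myelin genes. The committed state is sparse in the adult cord, where it is known to accompany the slow addition of new oligodendrocytes.

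The kept nuclei numbered 27891, 27113, 37497 and 19693, at a median of 1284, 1484, 1509 and 1438 UMIs each. Library pairs shared between 162 and 293 barcodes, or 0.731% to 1.05% of the smaller library. No barcode was a committed nucleus in more than 1 library, though 2 committed barcodes of the knockout SNI library also occurred in the knockout naive library. Gpr37l1, on the minus strand of chromosome 1 at 135160234 to 135167681 in GRCm38, gave 0.253, 25.8, 0.333 and 14.2 CPM (UMIs scaled to a common library total without mitochondrial genes) in all other kept nuclei. The targeted gene was thus near 0 in both knockout libraries and present in both wild-type ones, as the titles state. In the committed nuclei themselves it gave 0, 1, 0 and 3 UMIs, from 3 nuclei, which is too few to give its level in these cells. Its close relative Gpr37 gave 0, 1, 1 and 2 UMIs. Psap, the precursor protein of prosaposin-derived ligands proposed for both receptors, gave 14, 4, 9 and 6 UMIs.

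The 2 sums placed most of the committed nuclei near their limits. The early sum of Gpr17, Neu4 and Bmp4 was exactly 2 UMIs in 32 of the 51 nuclei and reached 4 at most, whereas the late sum of the other 5 genes was exactly 2 in 7 and at least 5 in 34. In 16 nuclei both sums were 3 or more. The early sum therefore set who was counted: 91 kept nuclei met it and 12376 met the late sum. Just outside, 228 nuclei had an early sum of 1 with a late sum of 2 or more, 16 had enough early UMIs with a late sum of 1, and 22 had them with a late sum of 0. Of the 52 nuclei that met both sums, the neuronal limit removed 1, from the knockout naive library.

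The early genes were seldom seen together. Only 3 of the 51 nuclei held UMIs of all 3 early genes, 28 held exactly 2 of them and 20 held 1. Gpr17, a G protein-coupled receptor that marks the stage, and Neu4, a sialidase, were each seen in 32 nuclei, and Bmp4, a secreted signal of the TGF-beta family, in 21. Of the late genes, Bcas1, which marks early myelinating cells, was seen in 48, the Wnt effector Tcf7l2 in 28, the glycoprotein Mpzl1 in 27, the choline phosphodiesterase Enpp6 in 25 and the deacetylase Sirt2 in 22.

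**Figure D1:**
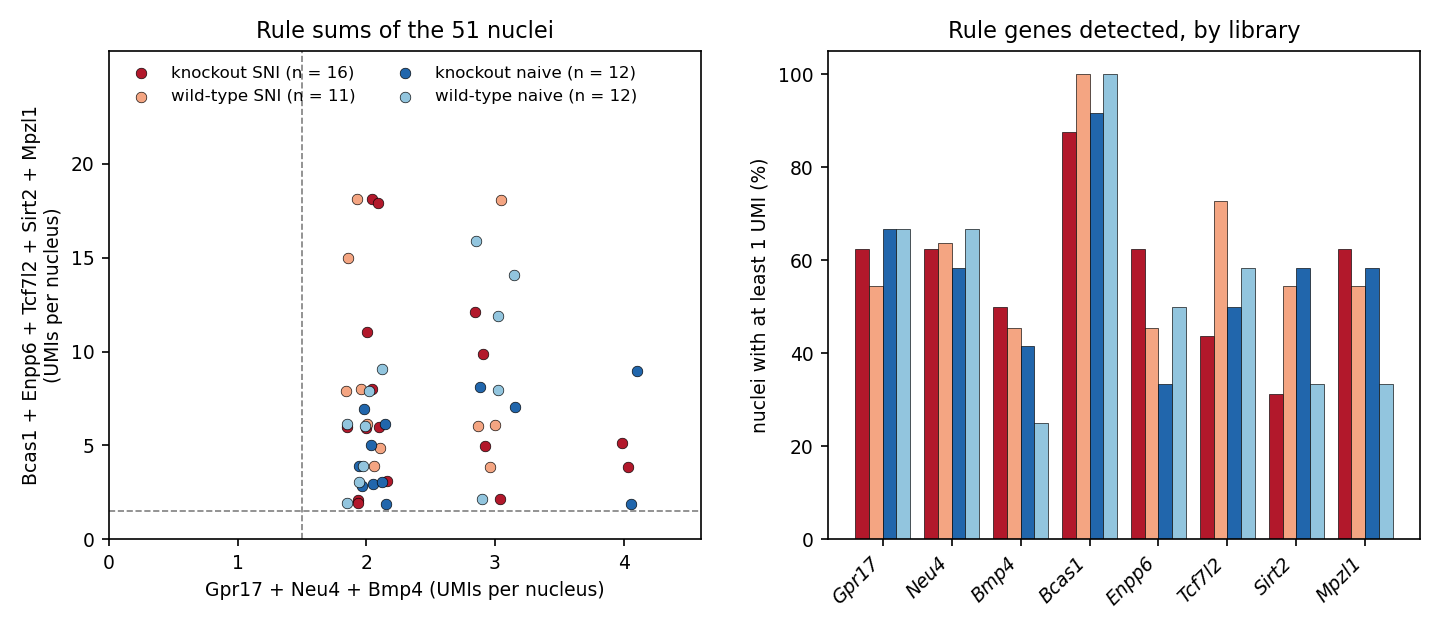
Left, the early sum (Gpr17, Neu4 and Bmp4; x axis, UMIs) against the late sum (Bcas1, Enpp6, Tcf7l2, Sirt2 and Mpzl1; y axis, UMIs) of each of the 51 committed nuclei, with points jittered, colours for the 4 libraries and dashed lines below the limit of 2 UMIs. Right, the percent of each library's committed nuclei with at least 1 UMI of each of the 8 lineage genes; 32 of the 51 nuclei sit at the lowest early sum allowed.

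A sum of 2 UMIs can also come from free RNA or from 2 nuclei in 1 droplet, so the same genes were read in all other kept nuclei. At a common depth of 1000 UMIs per nucleus, a Gpr17 UMI was seen in 44.4% of 36 committed nuclei deep enough to be thinned (95% interval 27.9 to 61.9) and in 0.251% of 80064 other nuclei. Without thinning the shares were 62.7% and 0.424%, at median depths of 1565 and 1430 UMIs. Neu4 was seen in 36.1% of committed nuclei and 0.357% of the others, and Bmp4 in 27.8% and 0.102%. The choice of nuclei sets this gap, because the committed nuclei were chosen on these genes and the others hold no nucleus that met the rule. The others also include the 228 nuclei just outside with an early sum of 1. How many early UMIs came from free RNA or doublets was not tested. Among 25352 nuclei beyond the neuronal limit, 2 had an early sum of 2 or more. Scrublet marked 7 of the 51 committed nuclei as possible doublets (2, 1, 3 and 1 by library), or 13.7%, against 9.02% of all other nuclei. These 7 were kept.

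For comparison, a precursor gate took the 498 other nuclei with at least 2 UMIs of Pdgfra, Cspg4 and C1ql1, and a mature gate the 17478 with at least 2 UMIs of the myelin genes Mog, Mag, Opalin and Hapln2. Each gate required fewer than 2 UMIs of the other gate's genes and the same neuronal limit. Pdgfra stood at 963, 53.8 and 9.38 CPM in precursor, committed and mature nuclei, and Cspg4 at 435, 53.8 and 8.89 CPM. Mag, an adhesion molecule of the inner myelin layer, stood at 74, 248 and 726 CPM, and Mog, on the outer surface of myelin, at 67.6, 151 and 765 CPM. The committed nuclei thus lay between the gates in these genes. The gates were drawn on the same genes, so this placing is a description and not a result. Of single nuclei, 40 of the 51 had no UMI of the precursor genes and 28 none of the mature genes, while 1 had 2 or more of the precursor genes and 11 had 2 or more of the mature genes (1, 5, 3 and 2 by library). The label was met by its markers, in that all 8 lineage genes were at their highest pooled level in the committed nuclei, which the choice of nuclei fixes.

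Markers of vascular, meningeal, ependymal and Schwann cells were nearly absent, whereas those of neurons, astrocytes and microglia stood near the level of the gates or of the tissue. The 20 neuron markers outside the choosing rule summed to 5366, 6119, 6300 and 4923 CPM by library, or 5738 CPM pooled, against 7534 CPM in the precursor gate and 6854 CPM in the mature gate. Of 10 endothelial markers 8 were at 0, as were 9 of 10 pericyte, 9 of 10 fibroblast, 9 of 10 ependymal and 8 of 10 Schwann cell markers. The endothelial list summed to 21.5 CPM in committed nuclei, 85.1 CPM in the mature gate and 93.4 CPM in all other nuclei. The precursor gate stood apart at 973 CPM, and at 2347, 858, 50.1 and 602 CPM by library. It thus held vascular transcripts in amounts that differed between libraries. Astrocyte markers summed to 748, 688, 602 and 1047 CPM, or 754 CPM pooled, against 779 CPM in all other nuclei. Microglial markers summed to 1012, 574, 80.3 and 209 CPM, higher in both injury libraries than in both naive ones. The same order held outside the committed nuclei, at 817, 470, 268 and 380 CPM in all other kept nuclei, and 3 of the 12 markers (C1qa, Tmem119 and Trem2) were at 0 in the committed ones. C1qb, a complement subunit made by microglia, gave 5, 3, 0 and 0 of these UMIs. What the microglial UMIs contribute to the other values was not tested.

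Committed nuclei made up 16 of 27891 kept nuclei after SNI in the knockout, 11 of 27113 after SNI in the wild type, 12 of 37497 in the naive knockout and 12 of 19693 in the naive wild type. These are shares of 0.0574% (Clopper-Pearson 95% interval 0.0328 to 0.0931), 0.0406% (0.0203 to 0.0726), 0.032% (0.0165 to 0.0559) and 0.0609% (0.0315 to 0.106). All 4 intervals overlapped. The knockout share was 1.41 times the wild-type share after SNI (0.616 to 3.37) and 0.525 times in naive cord (0.216 to 1.28). The SNI share was 0.666 times the naive share in the wild type (0.266 to 1.65) and 1.79 times in the knockout (0.796 to 4.15). Every one of these intervals spans 1, so no difference in the share of committed nuclei was detectable at this depth.

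The naive knockout had the lowest share of kept nuclei, but the gap depended on which nuclei were counted. Among nuclei with at least 1000 UMIs the shares were 0.0483%, 0.0438%, 0.0409% and 0.0499%, which lie closer together than the shares over all kept nuclei. Of all nuclei in the lineage, counted as committed, precursor and mature, the committed ones were 0.383%, 0.253%, 0.2% and 0.344%, or 0.283% pooled. Set against the precursor gate alone they were 10.6% (6.18 to 16.6), 8.27% (4.2 to 14.3), 8.82% (4.64 to 14.9) and 9.3% (4.9 to 15.7) of the 2 kinds together. By that last measure the 4 libraries lay close together. The gate held vascular transcripts in amounts that differed between libraries, as given above, and what this does to the measure was not tested. The precursor gate itself was 0.484%, 0.45%, 0.331% and 0.594% of kept nuclei.

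**Figure D2:**
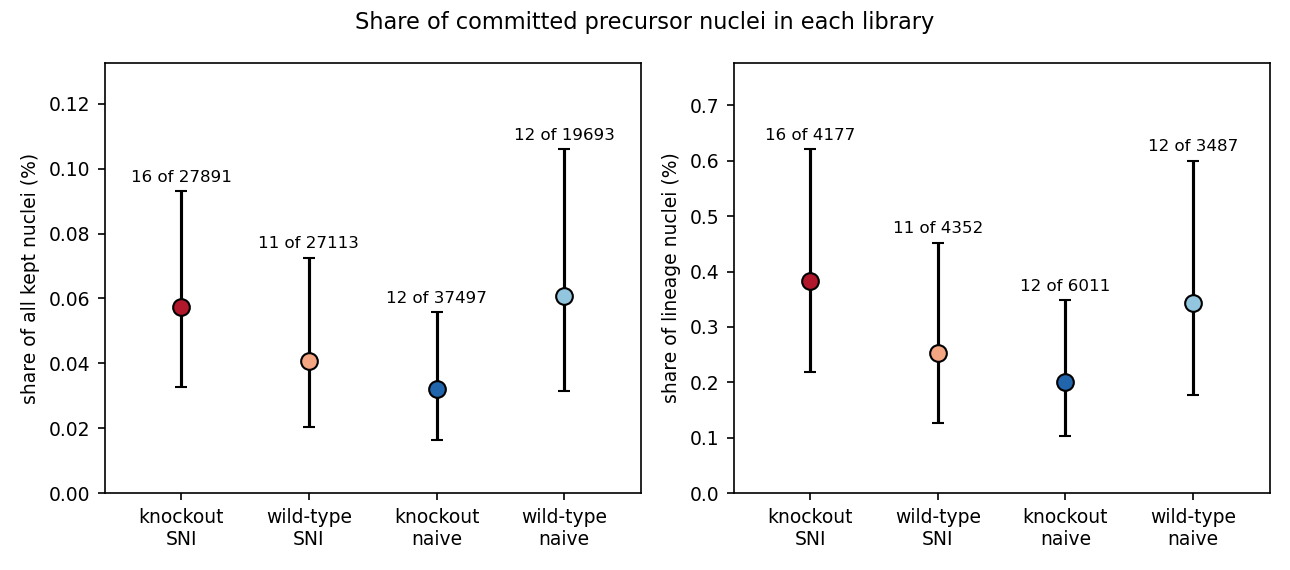
Percent of committed nuclei among all kept nuclei (left) and among nuclei of the oligodendrocyte lineage (right) in the knockout SNI, wild-type SNI, knockout naive and wild-type naive libraries, with exact 95% Clopper-Pearson intervals and the counts printed. The intervals of the 4 libraries overlap in both panels.

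Across the genome, 1710 genes had enough UMIs to be read against both gates. Against the precursor gate, 4.44% of them were at least 2-fold higher in the committed nuclei with the same sign in all 4 libraries, and 5.61% were at least 2-fold lower. Against the mature gate, the shares were 7.08% and 6.32%, or 2.38% and 3.51% of the 13208 genes that could be read against that gate alone. The genes higher than in both gates numbered 51, or 2.98%, and those lower than in both numbered 39, or 2.28%. Because the nuclei and gates were drawn on genes of this lineage, these counts describe the nuclei and test nothing. A gene needed 100 UMIs over committed nuclei and gate together. Some genes low in the precursor gate were thus read only through their UMIs in the committed nuclei. The median log2 ratios over all genes were -0.12 against the precursor gate and -0.03 against the mature gate. Counts and medians of gene lists below are to be read beside these values. The lists share genes, such as Fyn, Tns3, Cd9, Tnr, Nfasc, Sox6 and Cacng4, so their counts are not separate from each other.

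The kinase gene Fyn was high in the committed nuclei of every library. Fyn, a Src-family kinase that links axon contact to process growth and local translation of myelin mRNA, lies on the plus strand of chromosome 10 at 39368855 to 39565381 in GRCm38. It had 224 UMIs in 42 committed nuclei and stood at 2815, 2371, 2408 and 1990 CPM by library. The 4 levels lay close together and their intervals overlapped. Pooled, Fyn was at 294, 2411 and 188 CPM in precursor, committed and mature nuclei, a log2 ratio of 3.04 (2.77 to 3.31) over the precursor gate and 3.68 (3.48 to 3.88) over the mature gate. At a common depth 69.4% of committed nuclei had a Fyn UMI, against 27.4% of precursors, 15.8% of mature nuclei and 18.1% of all other nuclei.

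Several genes acting on the cytoskeleton stood beside Fyn. Tns3, a tensin that ties integrins to actin, was at 1056, 1071, 803 and 1047 CPM by library, a log2 ratio of 2.85 over precursors and 3.61 over mature nuclei. Epb41l2, a protein 4.1 family linker of membrane and actin, was at 1232, 612, 722 and 681 CPM, with ratios of 2.99 and 2.59. Arhgap24 was at 1759, 650, 562 and 1309 CPM, with ratios of 2.98 and 3.45, but differed between libraries as described below. Of the 17 genes of the cytoskeleton and process list that could be read, 8 were at least 2-fold higher than in the precursor gate and 7 than in the mature gate, and the list's median log2 ratios were 0.87 and 0.67, against -0.12 and -0.03 over all genes. Map1b, a microtubule protein of growing processes, stood at 356, 1206 and 399 CPM over the 3 stages, Arhgap35 at 192, 657 and 166 CPM and Arhgap5 at 164, 495 and 193 CPM. The list also held genes near the level of the gates, such as Rock2 at 177, 172 and 159 CPM and Cdc42 at 157, 140 and 149 CPM.

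Of genes known from published work to mark the committed stage but not used to choose the nuclei, 10 of 20 could be read. Fyn, Tns3, Tmem108, Cd9, Tmem163, Sema5a and Tnr were at least 2-fold higher than in each gate, with list medians of 1.59 and 2.64. Tmem108, a transmembrane protein, was at 374, 2153 and 271 CPM over the 3 stages, and Cd9, a tetraspanin of the lineage, at 147, 549 and 61 CPM. Sema5a, a guidance semaphorin, was at 321, 937 and 193 CPM. Of 19 genes of newly formed oligodendrocytes in the matrix, 6 could be read: Ust, Frmd4a, Chn2, Nfasc, Cyfip2 and Itpr2. All 6 were higher than in each gate, with medians of 2.32 and 2.30. UMIs of the committed nuclei counted towards the limit for reading, so list genes low there were less likely to be read. Ust, a sulfotransferase that acts on chondroitin and dermatan sulfate, was at 2287, 1339, 1725 and 2200 CPM by library and at 277, 1852 and 91.2 CPM over the stages, with log2 ratios of 2.74 and 4.34. Itpr2, an intracellular calcium channel used as a marker of newly formed oligodendrocytes, was at 198, 571 and 48.8 CPM. Nfasc, the neurofascin of paranodal junctions, was at 274, 1313 and 464 CPM.

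**Figure D3:**
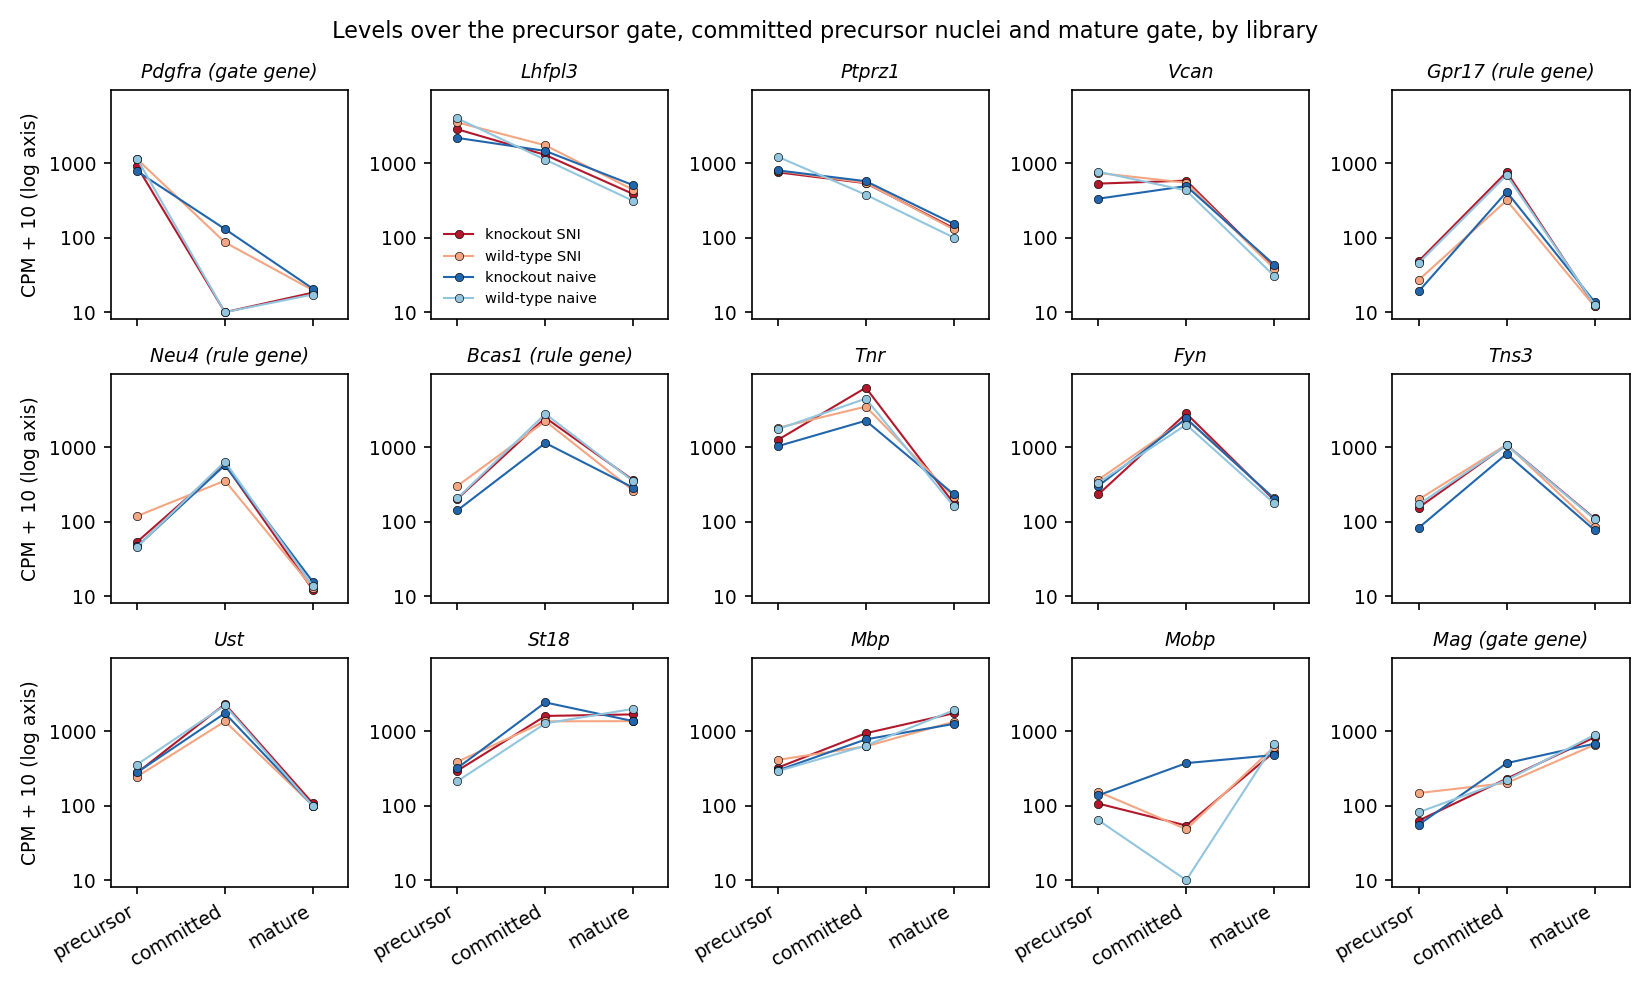
Level of 15 genes (y axis, CPM plus 10 on a log scale) over the precursor gate, the committed nuclei and the mature gate, with 1 line per library. Fyn, Tns3 and Ust peak in the committed nuclei in all 4 libraries, Tnr is shared with precursors, St18 with mature nuclei, and Mbp and Mobp go on to higher levels in mature nuclei; panels marked rule or gate show genes used to choose the nuclei.

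Genes of the precursor stage differed in how far they stood below the precursor gate. Of 15 readable precursor genes, 5 were at least 2-fold lower than in the precursor gate (Megf11, Sox5, Lhfpl3, Pcdh15 and Cacng4), 1 was higher (Sox6), and the median log2 ratio was -0.77. Against the mature gate 10 of the 15 were higher and none lower, with a median of 1.75. Megf11, a scavenger-receptor-like membrane protein, stood at 379, 86.1 and 25.1 CPM over the 3 stages, and Cspg5, a brain proteoglycan, at 347, 64.6 and 84.6 CPM. Lhfpl3 stood at 3039, 1410 and 420 CPM and the protocadherin Pcdh15 at 2159, 1012 and 825 CPM. The chondroitin sulfate proteoglycan Vcan, in contrast, was at 563, 506 and 29.2 CPM, near its precursor level with a log2 ratio of -0.15. The receptor phosphatase Ptprz1 lay between, at 864, 506 and 124 CPM. Summed over the list, the committed nuclei held 12360, 12010, 11800 and 10680 CPM of precursor transcripts by library, against 18480 CPM in the precursor gate and 5229 CPM in the mature gate.

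The matrix gene Tnr kept a precursor-stage pattern and exceeded it. Tnr encodes tenascin-R, a matrix glycoprotein made by oligodendrocyte-lineage cells and some neurons, and lies on the plus strand of chromosome 1 at 159523769 to 159931729. It had 374 UMIs in 49 of the 51 nuclei and was at 1411, 4026 and 195 CPM over the 3 stages, with log2 ratios of 1.51 over precursors and 4.37 over mature nuclei. At a common depth a Tnr UMI was seen in 88.9% of committed nuclei, 63.8% of precursors and 13.6% of mature nuclei. Of 14 readable genes of the matrix and adhesion list, 2 were 2-fold higher than in precursors and 1 was lower, whereas 5 were higher than in mature nuclei. Over all genes 4.44% were higher and 5.61% lower than in precursors, and 7.08% were higher than in mature nuclei.

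Transcription factors of the lineage divided by stage. Of 10 that could be read against the precursor gate, St18, Sox10, Zeb2 and Sox6 were at least 2-fold higher in the committed nuclei and Myt1 and Sox5 lower. St18, a zinc-finger factor, was at 295, 1669 and 1513 CPM over the 3 stages, so it stood at the mature level. Zeb2, which represses BMP and Wnt signalling during myelination, was at 668, 1582 and 1162 CPM. Sox6, known to hold back terminal differentiation, was at 678, 1356 and 61.4 CPM, while Sox5 was at 751, 323 and 217 CPM. Sox10, required through the lineage, was at 144, 366 and 126 CPM. Myrf, the regulator of myelin gene transcription, gave 5 UMIs, Olig1 gave 5, Olig2 gave 2 and Nkx2-2 gave 4, too few to place.

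Myelin genes were present at an intermediate level. Mbp, myelin basic protein, was at 318, 732 and 1465 CPM over the 3 stages, with log2 ratios of 1.20 over precursors and -1.00 over mature nuclei. Mobp, a later myelin protein, was at 107, 118 and 543 CPM, but the committed level rests on 11 UMIs, given as 1, 1, 9 and 0 by library. Fa2h, which hydroxylates myelin lipids, was at 103, 280 and 287 CPM, at its mature level. Of the 7 readable myelin genes 2 were 2-fold higher than in precursors (Fa2h and Mbp) and 2 lower than in mature nuclei (Apod and Mbp). The myelin list summed to 4663, 3825, 5176 and 4609 CPM by library, and the libraries lay close together. Myelin transcripts are abundant in this tissue: at a common depth 47.2% of committed nuclei had an Mbp UMI, but so did 22.4% of all other nuclei. How much of the myelin signal in the committed nuclei was free RNA was not tested.

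Receptors and channels were mostly at or below the precursor level. Of 30 readable genes of glutamate signalling and ion channels, none was 2-fold higher than in the precursor gate and 4 were lower (Grik1, Cacna2d3, Kcnd3 and Cacng4). The list's median log2 ratio was -0.52, against -0.12 over all genes, of which 4.44% were higher and 5.61% lower. Against the mature gate 3 were higher and 3 lower, beside 7.08% and 6.32% over all genes. The AMPA receptor subunit Gria2 stood at 1169, 1787 and 869 CPM and the metabotropic receptor Grm5 at 1701, 894 and 1177 CPM over the stages. Cell cycle genes were nearly absent, as 24 of 29 were at 0 and 41 of the 51 nuclei had no UMI of any. They summed to 140 CPM, of which Pola1, a DNA polymerase subunit, gave 7 UMIs, against 287 CPM in precursors and 170 CPM in mature nuclei. None of the cholesterol synthesis genes had enough UMIs to be read, and the list summed to 807, 1055 and 984 CPM over the 3 stages.

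Apart from the lists, the 20 genes furthest above the larger of both gates included enzymes, transporters and noncoding RNAs. The receptor phosphatases Ptpro and Ptprj were at 93.5, 474 and 26.1 CPM and at 363, 1636 and 147 CPM over the 3 stages. Chd3, a chromatin remodeller of the NuRD complex, was at 84.4, 463 and 53 CPM, and Slc22a23, a transporter-family protein, at 156, 883 and 159 CPM. Among them were 2 long intergenic noncoding RNAs, whose roles are not annotated in the files. 9530059O14Rik was at 1496, 1568, 762 and 1362 CPM by library, with log2 ratios of 3.89 over precursors and 2.74 over mature nuclei. Gm13052 was at 74, 624 and 38.6 CPM over the stages, with ratios of 3.08 and 4.02. Frmd4a, a scaffold of cell polarity, was at 761, 4489 and 878 CPM, though 1 nucleus gave 17.3% of its UMIs. All 20 stayed at least 2-fold above both gates when possible doublets, the largest nucleus of each library or nuclei with 2 or more mature UMIs were left out.

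**Figure D4:**
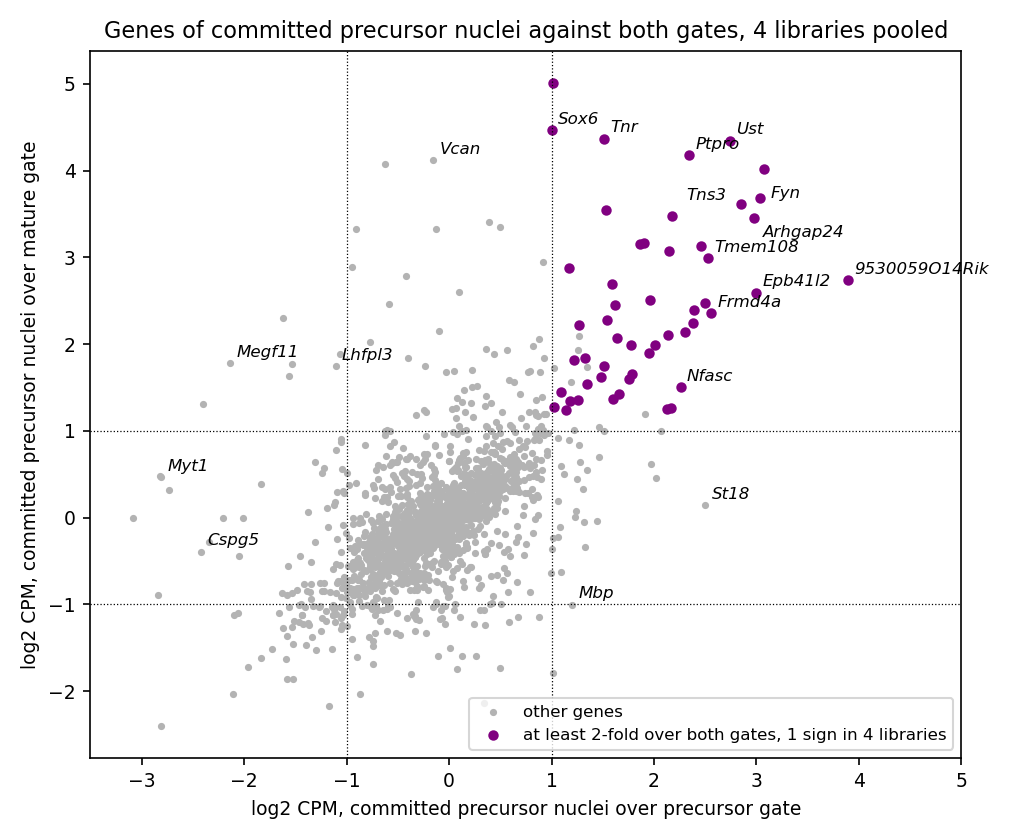
Log2 ratio of pooled CPM in the 51 committed nuclei over the precursor gate (x axis) and over the mature gate (y axis) for 1710 genes, each a point. The 51 purple points are at least 2-fold above both gates with 1 sign in all 4 libraries; genes of the gates and of the choosing rule are not results.

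The committed nuclei were not alike. The 25 nuclei with an Enpp6 UMI had 1369 CPM of Epb41l2, 2669 of Ust, 1393 of Tns3 and 1068 of Mbp, against 321, 1144, 642 and 442 CPM in the 26 without one. Of the precursor genes, Lhfpl3 was at 975 CPM in nuclei with Enpp6 and 1787 CPM in those without, but Vcan was at 511 and 502 CPM and Ptprz1 at 534 and 482 CPM. The 23 nuclei with any UMI of Mog, Mag, Opalin or Hapln2 had less Bcas1 (1673 CPM against 2614 in the other 28), less Tnr (3188 against 5038) and less Fyn (1968 against 2947), and more Mbp (826 against 618). Enpp6 and Bcas1 were rule genes and these splits were drawn on the same counts, so they are descriptions without a test.

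Between libraries, the genes at 2-fold or more were few in number and rested on small counts. A gene was read where the pair of libraries held 50 or more of its UMIs. For such genes the median interval reached 0.707 to 0.732 log2 units to either side. A library high in a gene could carry it past this limit alone. The naive knockout did so for Slc24a2 (52 UMIs, against 5 in the naive wild type) and Dpp10 (63 against 5). The 4 comparisons share libraries in pairs, so they are given side by side and not set against each other. Of the same genes, none passed 2-fold in all other kept nuclei in any of the 4 comparisons, while in the precursor gate 4 did in the naive pair, 1 in the SNI pair and 1 within the knockout, and in the mature gate 1 did in the naive pair.

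In naive cord, Kcnip4, Dpp10 and Slc24a2 were higher in knockout than in wild-type committed nuclei, and Tmem108 was lower. Of 82 genes, 15 were at least 2-fold higher in the knockout (18.3%) and 2 lower (2.44%), and the median log2 ratio was 0.32. With that median set to 0, 7 were higher and 5 lower. Kcnip4, a potassium channel partner abundant in neurons, stood at 1672, 1759, 5257 and 576 CPM by library. The naive knockout was high and the naive wild type low, with intervals of 4395 to 6238 CPM and 288 to 1031 CPM that did not overlap. The log2 ratio of knockout to wild type was 3.19 (2.30 to 4.23), from 131 and 11 UMIs. Dpp10, another potassium channel partner, stood at 660, 1377, 2528 and 262 CPM, a ratio of 3.27 (1.97 to 4.94), and the sodium-calcium exchanger gene Slc24a2 at 528, 765, 2087 and 262 CPM, a ratio of 2.99 (1.68 to 4.68). All 12 naive knockout nuclei had a Kcnip4 UMI, with 48 UMIs in the highest, against 3 of 12 in the naive wild type.

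These transcripts are abundant in the whole tissue. Kcnip4 stood at 4153, 3653, 4945 and 4047 CPM in all other kept nuclei and at 2232, 1842, 3527 and 2223 CPM in the precursor gate. In the naive knockout Kcnip4 was thus near its level in all other nuclei, as was Dpp10 at 2528 CPM in committed and 2706 CPM in other nuclei, whereas Slc24a2 at 2087 CPM (1558 to 2736) lay above the 1270 CPM of other nuclei. In the naive wild type all 3 genes lay below other nuclei. The 20 neuron markers outside the rule summed to 6300 CPM in the naive knockout and 4923 CPM in the naive wild type, a log2 ratio of 0.36 whose interval (-0.02 to 0.74) includes 0. Leaving out possible doublets left 5 genes at 2-fold in this comparison, of 44 that could then be read. Kcnip4 was then at 3.30 and Slc24a2 at 3.04 on the log2 scale. In the naive knockout this left 48 of 131 Kcnip4 UMIs, 40 of 52 Slc24a2 UMIs and 13 of 63 Dpp10 UMIs. Dpp10 then had too few UMIs to be read in the naive pair. Possible doublets thus held most of the Kcnip4 and Dpp10 UMIs of the naive knockout committed nuclei. The source of these transcripts was not tested.

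Of the committed-stage list outside the rule, 3 genes could be read in the naive pair, 2 of them below 0 and 1 above it. Tmem108 was at 2727, 1568, 1445 and 3195 CPM, a ratio of -1.15 in naive nuclei. Tnr was at 6246, 3480, 2247 and 4451 CPM, a ratio of -0.99 (-1.50 to -0.48), with 10 of 12 naive knockout nuclei and all 12 naive wild-type nuclei holding a UMI. The interval of Tnr in the naive knockout (1697 to 2918 CPM) lay below that in the naive wild type (3556 to 5504 CPM). Without possible doublets the ratio was -0.35 for Tnr and -0.45 for Tmem108. Fyn had a ratio of 0.28 (-0.34 to 0.90). Bcas1, given as a description because it helped to choose the nuclei, was at 2463, 2218, 1124 and 2776 CPM.

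After SNI, Arhgap24 was higher in knockout than in wild-type committed nuclei. Of 98 genes, 9 passed 2-fold (9.18%): 3 were higher in the knockout (3.06%) and 6 lower (6.12%), and the median log2 ratio was 0.12. With that median set to 0, 1 was higher and 7 lower. Arhgap24 stood at 1759 CPM in the knockout and 650 CPM in the wild type, a log2 ratio of 1.44 (0.59 to 2.35) from 40 and 17 UMIs, and their intervals of 1257 to 2396 and 379 to 1041 CPM did not overlap. Frmd4a was at 7082 and 3366 CPM, a ratio of 1.07 that turned to -0.29 when every nucleus was thinned to 1000 UMIs before the choice. Tnr stood at 6246 and 3480 CPM, a ratio of 0.84 (0.45 to 1.24) that was -0.13 after the same thinning and 0.21 among nuclei with both sums of at least 3. Of the committed-stage list outside the rule 4 genes could be read, 3 above 0 and 1 below it, and none reached 2-fold. Its 20 genes summed to 16630 CPM in the knockout and 11930 CPM in the wild type, with Tnr giving 142 of 378 and 91 of 312 UMIs, and those of newly formed oligodendrocytes to 13940 and 7534 CPM, a log2 ratio of 0.89 (0.63 to 1.15) in which Frmd4a gave 161 of 317 and 88 of 197 UMIs. Of genes lower in the knockout, Cntnap2, a neurexin-family adhesion gene, was at 1100 and 3213 CPM, a ratio of -1.55. In the wild-type library 69 of its 84 UMIs lay in 1 nucleus, the largest there, with 7629 UMIs in all. Without the largest nucleus of each library the Cntnap2 ratio was 0.38, so its direction rests on that nucleus. Microglial UMIs were also more numerous in the knockout SNI library, as given above, and their part was not tested.

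In the wild type, SNI nuclei differed from naive ones in 8 of 73 genes at 2-fold, 6 higher (8.22%) and 2 lower (2.74%), with a median log2 ratio of 0.10. Cntnap2 again led, at 3213 CPM after SNI and 628 CPM in naive nuclei, on the same large nucleus, and stood at 809 and 494 CPM without the largest nucleus of each library. Kcnip4 was at 1759 and 576 CPM, with 33 of its 46 SNI UMIs in 1 nucleus. The 2 lower genes were the AMPA receptor subunit Gria2 at -1.10 and Tmem108 at -1.03 on the log2 scale. The committed-stage list summed to 11930 CPM after SNI and 16230 CPM in naive nuclei, a log2 ratio of -0.44. Without the largest nucleus of each library 1 gene was at 2-fold, of 43 that could then be read.

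In the knockout, Tnr and Arhgap24 were higher, and Slc24a2, Dpp10 and Kcnip4 lower, in committed nuclei after SNI than in naive ones. Of 109 genes, 5 were at least 2-fold higher after SNI (4.59%) and 11 lower (10.1%), with a median log2 ratio of 0.03. Tnr stood at 6246 CPM after SNI and 2247 CPM in naive nuclei, a ratio of 1.48 (1.02 to 1.95), and the intervals of 5261 to 7362 and 1697 to 2918 CPM did not overlap. Without possible doublets the ratio was 1.00. Arhgap24 was at 1759 and 562 CPM, a ratio of 1.65 (0.74 to 2.64). Slc24a2, Dpp10 and Kcnip4 had ratios of -1.98, -1.94 and -1.65. Without possible doublets Dpp10 was at -0.32 and Kcnip4 at -0.95. The 20 neuron markers outside the rule had a log2 ratio of -0.23 with an interval (-0.59 to 0.12) that includes 0. Of the committed-stage list 4 genes could be read, all above 0 and 1 at 2-fold. The list summed to 16630 CPM after SNI and 10510 CPM in naive nuclei, a log2 ratio of 0.66 (0.43 to 0.89). Tnr itself gave 142 of the 378 and 56 of the 262 UMIs of that sum. This comparison and that of the naive libraries share the naive knockout library, so Tnr, Kcnip4, Dpp10 and Slc24a2 were read in both from the same 12 naive nuclei.

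**Figure D5:**
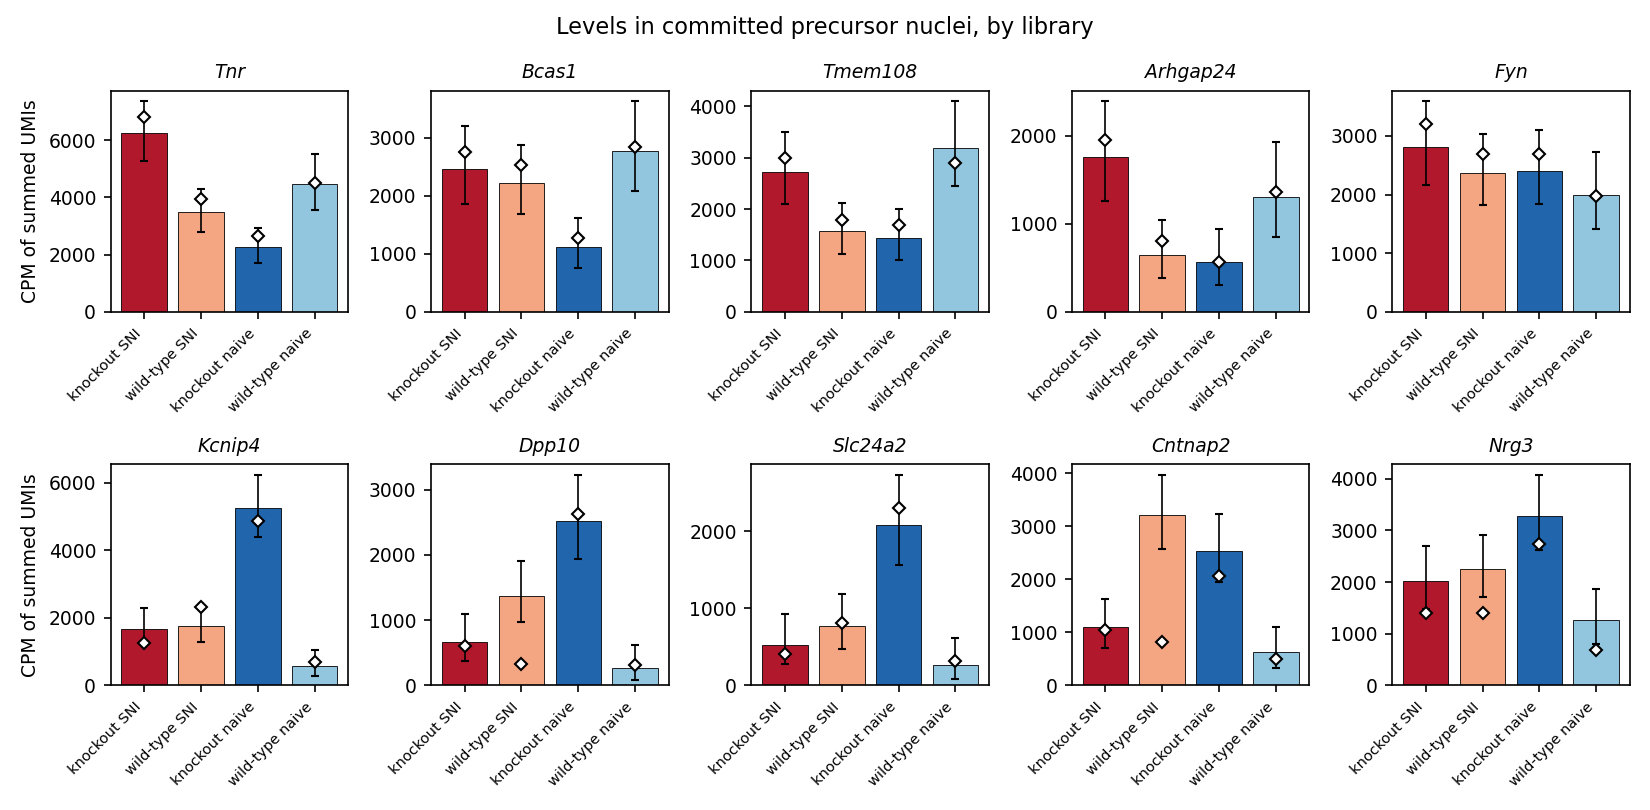
Level of 10 genes in the committed nuclei of each library (bars, CPM, with exact Poisson 95% intervals; white diamonds, the level without the nucleus with the most UMIs). Tnr is at 6246 CPM in the knockout SNI library and 2247 CPM in the knockout naive one, Fyn stays between 1990 and 2815 CPM, and the bar of Cntnap2 in the wild-type SNI library drops to 809 CPM without 1 nucleus.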

How the data were processed

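The authors sequenced nuclei from microdissected dorsal horn with 10x Genomics 3' chemistry, per the labels' protocols. The deposited matrices hold raw UMI counts of 32285 genes in called barcodes, and per the file headers they come from Cell Ranger 7.0.0. GRCm38, Seurat 4.3.0 and R 4.3.0 are named in the submitters' processing notes without a role. The sources used here state neither the intron setting nor whether animals were pooled. Barcodes without a nucleus were not used here, so no free RNA was subtracted. Antisense and overlapping genes were taken as the authors counted them.

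UMIs were summed over committed nuclei, gates and libraries and given as CPM without the 13 mitochondrial genes. Levels do not allow comparison between genes, since 3' counts also depend on capture. Levels have exact Poisson, ratios exact conditional binomial and shares Clopper-Pearson 95% intervals, for counting error only. A count of 0 was set to 3 UMIs in ratios. Against the gates, genes needed 100 UMIs in the sets compared; between libraries, 50 UMIs over the pair. For shares of nuclei with a UMI, nuclei were thinned to 1000 UMIs and shallower ones left out. Doublets were predicted per library with scrublet in scanpy 1.11.5, at an expected 10% and 2 simulated doublets per nucleus; in the knockout SNI library the automatic threshold marked under 0.5%, so the 90th percentile was used. Python 3.11.15, numpy 2.4.6, scipy 1.17.1, pandas 2.3.3 and matplotlib 3.10.9 were used. Ratio intervals were tried only on simulated counts drawn as independent UMIs. That simulation had no clumping of UMIs in single nuclei, so it does not show that the intervals hold for these data. Coordinates are those of GENCODE vM21.

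Named genes were the rule genes, Gpr37l1 and Gpr37; in each of 23 lists the most abundant and most different; the 20 highest and 10 lowest against each gate and the 20 highest above both; and the 8 highest and 8 lowest per comparison with an interval excluding 0. The way of choosing the nuclei and the lists were set with earlier results of these data known.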

Additional observations from a re-analysis of the deposited data

How the results depend on the processing

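All limits come from 1 library per group, 51 nuclei and 26147 UMIs or fewer per library, so the intervals cover counting error only and a single large nucleus can carry a gene. No paired analysis was possible because each group has 1 library. Over the alternatives, 47 of the summary values stayed within 1.5 times, or within the interval, of the value reported and 46 moved; the cause of the moves was not tested, except that stricter filters leave fewer genes and nuclei.

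The counts of genes at 2-fold are given in the order knockout SNI over wild-type SNI, knockout naive over wild-type naive, wild-type SNI over naive and knockout SNI over naive, and were 9, 17, 8 and 16. They were 3, 8, 5 and 8 with a Gpr17 UMI required, of 31, 43, 27 and 40 genes read. With both sums at least 3 they were 0, 3, 2 and 3. With 100 UMIs per gene they were 2, 4, 2 and 4 of 28, 21, 21 and 28. With 20 UMIs per gene they were 57, 72, 56 and 64 of 333, 284, 290 and 327, or 17.1%, 25.4%, 19.3% and 19.6%. When nuclei were thinned to 1000 UMIs before the choice they were 0 in each. Fewer genes could be read in most of these, 7, 8, 8 and 7 with both sums at least 3 and 3, 1, 2 and 4 after thinning, against 98, 82, 73 and 109, so a lower count there also reflects lost genes. Requiring 500 genes and 1000 UMIs gave 5 of 68 genes read in the SNI pair and 7 of 78 within the knockout. Leaving out nuclei with 2 or more mature UMIs gave 4 of 46 in the SNI pair and 12 of 49 in the naive pair. It gave 0 of 25 within the wild type and 9 of 73 within the knockout. Leaving out possible doublets gave 5 of 70 in the SNI pair, 5 of 44 in the naive pair and 5 of 61 within the knockout. A neuronal share under 1% gave 4 of 45 in the SNI pair, 10 of 38 (26.3%) in the naive pair and 0 of 29 within the wild type. Leaving Sirt2 and Mpzl1 out of the late sum gave 7 of 50 in the naive pair. Of the alternatives chosen after seeing the data, the mean of single nuclei gave 5 in the SNI pair and 4 within the wild type, and leaving out the largest nucleus of each library gave 1 of 43 genes read within the wild type.

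The shares in the order knockout SNI, wild-type SNI, knockout naive and wild-type naive were 0.0179%, 0.0148%, 0.008% and 0.0203% with both sums at least 3, and 0.383%, 0.253%, 0.2% and 0.344% of lineage nuclei. After thinning they were 0.0269% in the knockout SNI, 0.0146% in the wild-type SNI and 0.0214% in the wild-type naive library. Genes higher than in both gates numbered 48 to 66 over the alternatives, against 51.

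Some single values changed sign. Between the SNI libraries Cntnap2 was at 0.38 without the largest nuclei and 1.60 without nuclei with 2 or more mature UMIs. After thinning Frmd4a was at -0.29 and Tnr at -0.13 in that pair. Within the wild type Tnr, at -0.36, was at 0.55 after thinning and 0.62 with both sums at least 3. There Fgf14 and Nrg1 were each at -0.53 without nuclei with 2 or more mature UMIs, and Fgf14 was at -0.15 with a neuronal share under 1%. Within the knockout Dock4 was at -0.26 after thinning and Bcas1 at -0.002 with both sums at least 3. In the naive pair the median of the glutamate and ion channel list, 1.01 over 5 genes, was -0.006 over 11 genes with 20 UMIs per gene.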
